A study of Mus musculus with 42 samples.

Results

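The levels of 10 mouse genes of inflammasome signalling, pyroptosis and necroptosis were followed across 42 MC38 tumors: Nlrp3, Pycard, Casp1, Casp4, Gsdmd, Il18, Il18bp, Zbp1, Ripk3 and Mlkl. They were listed by name and are 10 of the 26811 gene identifiers of the count table. All 10 passed the filter on low counts, which kept 16932 genes. MC38 is a mouse colon carcinoma line. In each case 500000 MC38 cells were placed under the skin of a female CC075/UncJ x C57BL/6J F1 animal aged 8 to 12 weeks. The isotype group (n = 5) received isotype antibodies in place of every agent. The aPD1 group (n = 6) received 200 ug of aPD1, which blocks the PD-1 checkpoint receptor of T cells, after isotypes of the blocking antibodies. The aPD1 + aGMCSF group (n = 9) also received 100 ug of aGMCSF, which neutralizes the myeloid growth factor GM-CSF. The aPD1 + aIL2RB group (n = 11) instead received 200 ug of aIL2RB, directed at the receptor beta chain that binds IL-2 and IL-15, and the aPD1 + aGMCSF + aIL2RB group (n = 11) received both. Blocking antibodies or their isotypes were given intraperitoneally every 3 days from engraftment until tumors measured 75 to 110 mm3, aPD1 or its isotype was given once at that size, and whole tumors were collected 48 h later. The comparisons ask what a dose of aPD1 did to these genes and what blockade of either cytokine axis did to them in tumors given aPD1.

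Inflammasomes are cytosolic complexes in which a sensor such as NLRP3 recruits the adaptor ASC, encoded by Pycard, to activate caspase-1. Caspase-1 matures the cytokines IL-1 beta and IL-18 and cleaves gasdermin D, whose fragments form membrane pores that release the cytokines and lead to pyroptosis, while caspase-11, encoded by Casp4 in the mouse, senses bacterial lipopolysaccharide and also cleaves gasdermin D. Necroptosis is a separate lytic death in which ZBP1 or death receptors engage the kinase RIPK3, which phosphorylates the membrane-disrupting protein MLKL. Macrophages and other myeloid cells express many of these genes, interferons induce several of them, and IL-18 stimulates T and NK cells unless it is bound by its secreted decoy, IL-18 binding protein. Transcript levels say nothing about cleavage, phosphorylation or oligomerization, by which these proteins are switched on.

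Totals ranged from 7155464 to 24101643 counts per tumor, with the lowest in aPD1 + aGMCSF + aIL2RB replicate 4 and the next at 15109184. The tumors were divided along their replicate numbers into a first set of 22 tumors, with the lower numbers of each group, and a second set of 20, a division that took 11.5% of the variance left after treatment (10.9% for the next best cut) and that the sample labels do not name. The cut was chosen because it took the most of this variance over 10037 genes, so the sets were drawn from these same expression values. Nearby cuts took nearly as much, so the boundary is approximate. Ptprc, which encodes the leukocyte protein CD45, was at 150 to 180 CPM (counts scaled to the same total in each tumor, after TMM normalization) in isotype, 205 to 412 in aPD1, 142 to 229 in aPD1 + aGMCSF, 94.8 to 187 in aPD1 + aIL2RB and 86.8 to 368 in aPD1 + aGMCSF + aIL2RB tumors. The 6 granulocyte markers summed to 108 to 130 CPM in isotype, 121 to 138 in aPD1 and 87.9 to 123 CPM in the blockade groups, with S100a8 and S100a9 near 0. The 4 markers listed for MC38 and epithelial cells summed to 11.2 to 40.8 CPM.

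Positions are those of GRCm38. Casp1 (chr9:5298517-5307265, plus strand) and Casp4 (chr9:5308828-5336783, plus strand) are neighbours 1.563 kb apart, and Il18 (chr9:50554827-50581840, plus strand) is on the same chromosome. Pycard (chr7:127989708-127993867, minus strand) and Il18bp (chr7:102014885-102018690, minus strand) share another. Nlrp3 is at chr11:59541568-59566956 (plus), Gsdmd at chr15:75862327-75867408 (plus), Zbp1 at chr2:173206612-173218923 (minus), Ripk3 at chr14:55784995-55788865 (minus) and Mlkl at chr8:111311797-111338177 (minus). All are annotated as protein coding. Il18 was the shallowest, with 6 to 90 counts per tumor (median 35.5), and the median counts of the others ran from 170.5 for Ripk3 to 1324.5 for Mlkl. Pycard counts were not whole in 33 tumors and became whole (within 1e-06) in 42 of 42 when those of Gm45205 were added, so that some of its reads were shared with that locus. Gm45205 held 6.18 counts on average and at most 0.752 CPM. Per kilobase of the union of annotated exons, isotype tumors held the most of Mlkl (28.4 CPM per kb) and Casp1 (25.7), followed by Gsdmd (17.3), Zbp1 (17.1), Casp4 (6.25), Ripk3 (4.39), Il18bp (4.28), Nlrp3 (3.70), Pycard (3.05) and Il18 (1.68). That union is not the length of the expressed transcript, and for Pycard it covers 3800 bases, most of the gene, so that the order is only approximate.

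Because 9 or more of the 10 genes were lower together in each blockade group than with aPD1 alone, the RefSeq promoter windows (GRCm38.p6, the C57BL/6J sequence, 250 bases before to 50 after a start site) were searched on both strands for 4 short motifs of factors that act in interferon and myeloid responses. Of the members, 8 matched the table by symbol, all but Gsdmd and Zbp1, with 10 windows. The windows shown belong to the gene with the widest range among groups (Il18bp) and to genes with a match, with matched letters in capitals, each 5' to 3' on the strand of the gene.
Il18bp, chr7:102018183-102018482, minus strand: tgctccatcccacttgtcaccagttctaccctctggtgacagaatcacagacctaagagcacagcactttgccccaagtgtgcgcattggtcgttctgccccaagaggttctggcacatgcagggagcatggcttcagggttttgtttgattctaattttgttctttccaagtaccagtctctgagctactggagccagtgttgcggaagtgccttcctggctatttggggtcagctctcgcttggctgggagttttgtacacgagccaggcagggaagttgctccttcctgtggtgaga
Pycard, chr7:127993818-127994117, minus strand: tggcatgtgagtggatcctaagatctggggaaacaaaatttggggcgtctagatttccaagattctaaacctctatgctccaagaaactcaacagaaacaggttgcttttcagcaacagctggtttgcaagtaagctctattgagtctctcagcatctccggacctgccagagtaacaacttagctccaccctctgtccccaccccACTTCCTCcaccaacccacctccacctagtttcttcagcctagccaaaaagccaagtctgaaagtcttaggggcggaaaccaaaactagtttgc
Nlrp3, chr11:59541319-59541618, plus strand: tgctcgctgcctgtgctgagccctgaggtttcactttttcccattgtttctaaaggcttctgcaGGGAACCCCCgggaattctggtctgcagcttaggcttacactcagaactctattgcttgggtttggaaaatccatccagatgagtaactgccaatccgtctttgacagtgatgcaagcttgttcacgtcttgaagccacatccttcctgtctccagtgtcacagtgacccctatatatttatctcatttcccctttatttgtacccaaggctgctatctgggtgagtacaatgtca
Casp4, chr9:5308599-5308898, plus strand: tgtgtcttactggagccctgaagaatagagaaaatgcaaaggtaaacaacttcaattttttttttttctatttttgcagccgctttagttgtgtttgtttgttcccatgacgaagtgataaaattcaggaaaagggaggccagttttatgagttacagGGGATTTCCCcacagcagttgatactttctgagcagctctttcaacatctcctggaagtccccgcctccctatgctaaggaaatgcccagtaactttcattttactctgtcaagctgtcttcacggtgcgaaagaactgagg
The PU.1-type motif GAGGAAGT was in 1 of the 10 windows, that of Pycard, where it reads on the reverse strand from position -44, and in 3.2% of all 32851 windows. The kappaB-type motif, GGGAA and CC with any 3 bases between, was in 3 windows, at -186 in that of Nlrp3 and on the reverse strand in 2 overlapping windows of Casp4 that hold the same match, at -92 in the one shown. It was in 5.78% of all windows. The interferon-response motif, GAAA repeated after any 2 bases (3.44% of all windows), and the GAS-type motif TTCNNNGAA (8.3%) were in none of the 10, the Il18bp window included. The motifs do not overlap in these windows, a match is a run of letters and not a shown binding site, and a window without a match says nothing about the factor.

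In tumors given aPD1 alone, 4 of the 10 genes rose against isotype and none fell: Il18bp, Zbp1, Pycard and Gsdmd (edgeR's quasi-likelihood test, Benjamini-Hochberg adjusted over 16932 genes). Of all genes tested, 6.17% rose. The other 6 also had estimates above 0, and the median log2 fold change of the 10 was 0.56, against -0.0023 over all genes. In bulk tumors, a change in the number of cells of a type and a change in RNA per cell cannot be told apart. The macrophage and monocyte markers moved with these genes: 8 of 10 rose with a median of 0.62, and their summed level was 2688 to 3217 CPM in isotype and 3072 to 6019 CPM in aPD1 tumors. T and NK cell markers summed to 60.9 to 72.6 CPM in isotype and 92.1 to 216 in aPD1 tumors, with a median difference of 1.07 and 0 of 10 past the threshold. Skeletal muscle genes also moved with the treatment: 4 of 4 rose with a median of 4.24, at 0.2 to 20.3 CPM summed in isotype and 0.6 to 579 CPM in aPD1 tumors. The 7 conventional dendritic cell markers summed to 72.5 to 91.1 CPM in isotype and 96.2 to 146 CPM in aPD1 tumors without overlap. The 1 of 7 past the threshold, upward, was Irf8, which is also counted below among the interferon signalling genes and is not particular to dendritic cells. The part of these cells in the results was not tested.

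Il18bp, the gene of the IL-18 decoy, changed most. Its level in isotype replicates 1 to 5 was 11.6, 14.5, 11.2, 13.8 and 13.7 CPM. In the 6 aPD1 tumors it was 19.1 at the lowest, 34.9 at the median and 52.2 at the highest. Every aPD1 tumor was above every isotype tumor, and the group means of 12.95 ± 1.48 (SD, n = 5) and 34.3 ± 12.1 CPM (SD, n = 6) differed by 2.65-fold (log2 fold change 1.40, SE 0.370, adjusted p = 0.0141).

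Zbp1, a sensor of left-handed nucleic acids that is itself induced by interferon, had levels of 65.8, 82.2, 46.5, 56.0 and 50.5 CPM in isotype replicates 1 to 5. The aPD1 tumors ran from 82.7 through a median of 99.9 to 148 CPM. The ranges did not overlap, although the highest isotype tumor lay just under the lowest aPD1 tumor. The log2 fold change was 0.86 (SE 0.258, adjusted p = 0.0296, 1.81-fold). Il18bp and Zbp1 were the 2 members whose aPD1 tumors all exceeded the isotype tumors, which was true of 3.38% of all genes.

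Pycard, the ASC adaptor gene, was tightly held in isotype tumors at 11.8, 12.0, 11.6, 10.3 and 12.3 CPM. In aPD1 tumors it ranged from 12.2 through 20.04 to 27.3 CPM, so that the lowest aPD1 tumor touched the isotype range and the rest lay above it. It rose 1.64-fold (log2 fold change 0.72, SE 0.188, adjusted p = 0.0140). Gsdmd, the pore-forming substrate of caspase-1, was at 40.5, 48.5, 37.04, 40.7 and 39.2 CPM in isotype tumors and at 43.4, 50.2 and 61.2 CPM (lowest, median, highest) in aPD1 tumors. These ranges overlapped, and the rise was 1.26-fold (log2 fold change 0.33, SE 0.0852, adjusted p = 0.0130).

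Nlrp3, the sensor, was at 17.8, 11.5, 14.7, 12.8 and 18.2 CPM in isotype and 16.98, 24.6 and 33.2 CPM (lowest, median, highest) in aPD1 tumors. Its 1.61-fold difference did not pass the threshold (log2 0.69, SE 0.252, adjusted p = 0.0768), nor did that of Ripk3, the necroptosis kinase (log2 0.58, SE 0.247, adjusted p = 0.136). The caspases differed less, with log2 0.42 for Casp4 (SE 0.145, adjusted p = 0.0615) and 0.20 for Casp1 (SE 0.109, adjusted p = 0.264). Mlkl, the executioner of necroptosis, had the smallest estimate at 0.17 (SE 0.0762, adjusted p = 0.159). Il18, whose product the decoy binds, had log2 0.54 with an SE of 0.264 (adjusted p = 0.203), at 1.74 ± 0.320 CPM in isotype (SD, n = 5) and 2.51 ± 0.933 CPM in aPD1 tumors (SD, n = 6).

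The count of 4 rested on aPD1 replicate 4, which had the highest level of all 42 tumors in 7 of the 10 genes. Without it no member passed, though the estimates of the 4 stayed at 0.27 for Gsdmd (adjusted p = 0.0589), 0.59 for Pycard (0.0654), 1.24 for Il18bp (0.0507) and 0.75 for Zbp1 (0.0956). Without aPD1 replicate 2, whose Pycard and Il18bp levels were the lowest of the aPD1 group, 6 members passed, as did 6 without aPD1 + aGMCSF + aIL2RB replicate 1. Zbp1 also lost its call without aPD1 replicate 6 or any of isotype replicates 3, 4 and 5 (adjusted p = 0.0633 to 0.0783). Each of these fits left 3 members called. The calls over all genes moved too. With all tumors 1045 genes rose, against 511 without aPD1 replicate 4 and 1382 without aPD1 replicate 2. Without aPD1 + aGMCSF + aIL2RB replicate 1, 1267 rose. Without aPD1 replicate 6 the number was 703, and without isotype replicates 3, 4 and 5 in turn it was 748, 620 and 963.

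**Figure D1:**
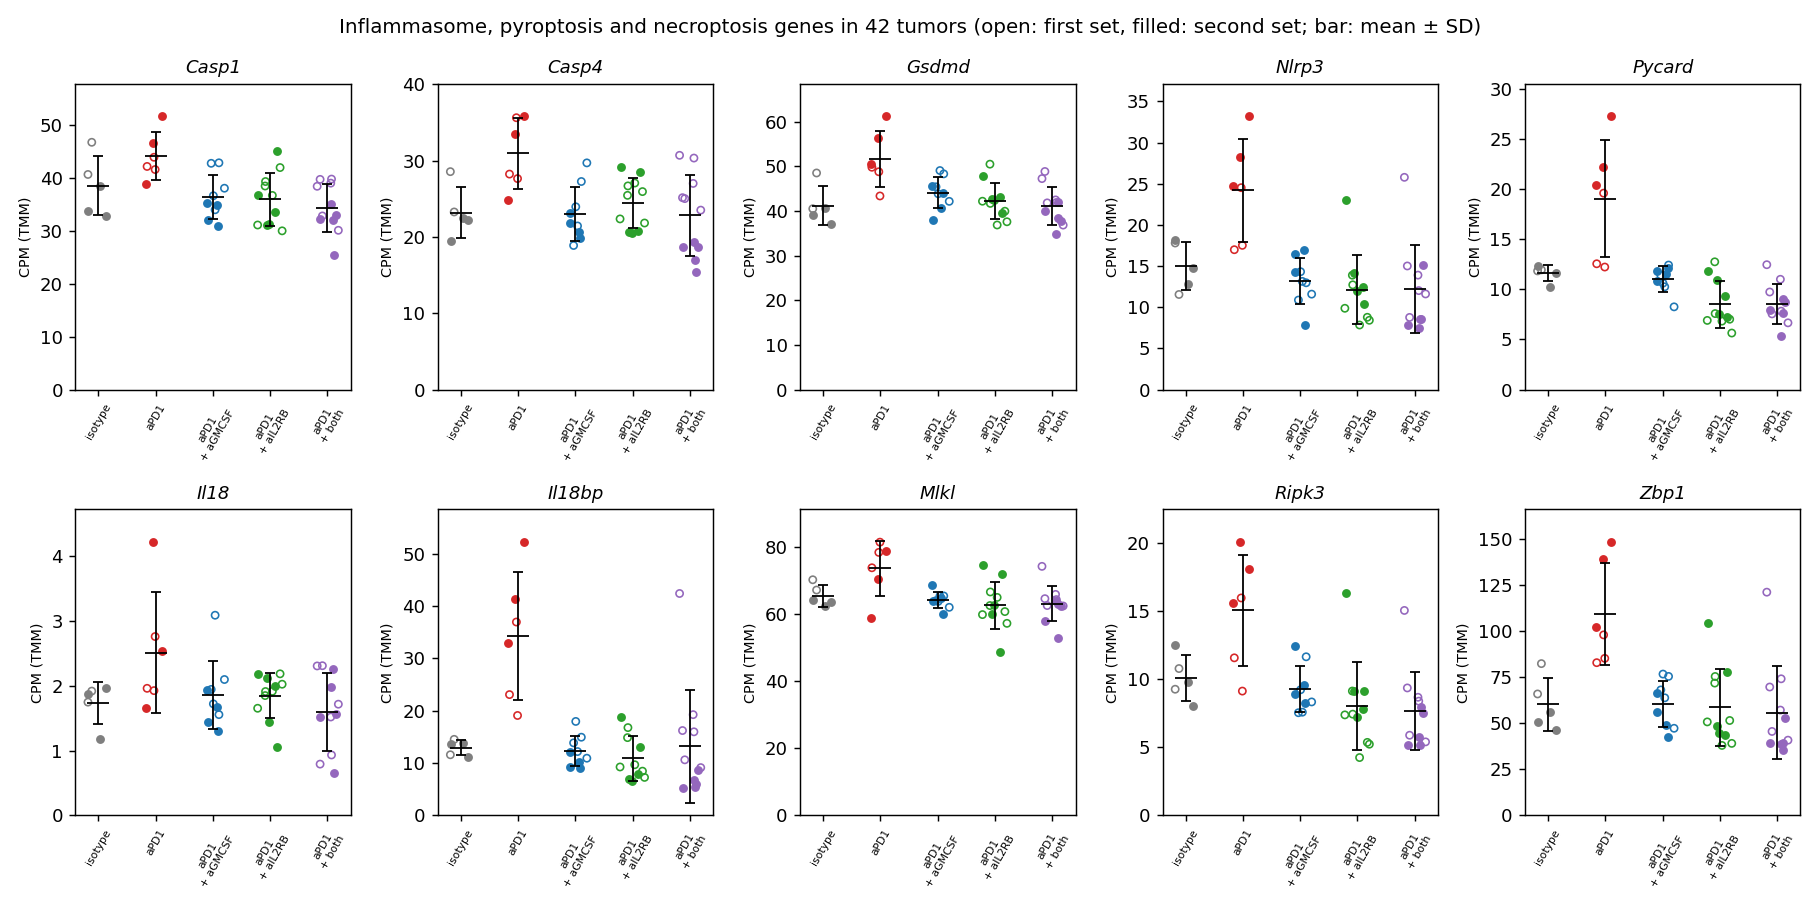
Level of each gene in CPM after TMM scaling (vertical axis, from 0) in every tumor of the 5 treatment groups (horizontal axis); open points are tumors of the first set, filled points of the second, and bars are the mean ± SD. The aPD1 group has the highest mean in all 10 panels. Replicate 1 of aPD1 + aGMCSF + aIL2RB (open) lies within the aPD1 range for Il18bp (42.4 CPM), Zbp1 (121), Nlrp3 (25.8) and Ripk3 (15.04). It also does for Casp4 (30.7), Gsdmd (47.3), Pycard (12.5), Il18 (2.31) and Mlkl (74.3), but not for Casp1 (38.5). Open replicates 5 for Il18bp (19.2) and 4 for Ripk3 (9.35) of that group lie just inside the lower end of the aPD1 range. Further tumors of that group lie inside it for other genes, among them Gsdmd and Mlkl.

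Added blockade of GM-CSF was compared with aPD1 alone. Of the 10 genes, 9 were lower in aPD1 + aGMCSF than in aPD1 tumors and none was higher, where 8.75% of all genes were lower. Il18 was the exception (log2 fold change -0.43, SE 0.227, adjusted p = 0.209). The median of the 10 was -0.57, against 0.0066 over all genes. The 3 comparisons with aPD1, and the comparison of aPD1 with isotype, all used the same 6 aPD1 tumors, so that their values are not independent of each other.

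In aPD1 + aGMCSF tumors Il18bp was at 9.06 CPM at the lowest, 12.1 at the median and 17.9 at the highest, all under the lowest aPD1 tumor, and it fell by 1.49 on the log2 scale (SE 0.310, adjusted p = 0.00122). Nlrp3 ranged from 7.86 through 13.1 to 16.9 CPM, and Zbp1 from 42.3 through 63.7 to 76.5 CPM. These were also below every aPD1 tumor, with log2 fold changes of -0.88 for Nlrp3 (SE 0.216, adjusted p = 0.00484) and -0.85 for Zbp1 (SE 0.219, adjusted p = 0.00702). Such separation downward was seen in these 3 members and in 2.2% of all genes.

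Pycard ranged from 8.26 through 11.4 to 12.4 CPM in aPD1 + aGMCSF tumors and fell by 0.79 on the log2 scale (SE 0.161, adjusted p = 0.000969), with its highest tumors level with the lowest aPD1 tumors. Ripk3 (-0.70, SE 0.212, adjusted p = 0.0219), Casp4 (-0.43, SE 0.125, adjusted p = 0.0160), Casp1 (-0.28, SE 0.0942, adjusted p = 0.0414), Gsdmd (-0.23, SE 0.0736, adjusted p = 0.0309) and Mlkl (-0.20, SE 0.0661, adjusted p = 0.0401) fell less. Without aPD1 replicate 4 the count was 4, namely Il18bp, Nlrp3, Pycard and Zbp1, and without aPD1 replicate 6 it was 6. Mlkl also lost its call without aPD1 replicate 1, 2 or 3 and Casp1 without replicate 1 (adjusted p = 0.0555 to 0.0939). Of all genes, 1482 were lower with all tumors, 810 without aPD1 replicate 4 and 1122 without aPD1 replicate 6. Leaving out aPD1 replicates 1, 2 and 3 in turn gave 1224, 1803 and 1548. Macrophage and monocyte markers were lower in 8 of 10 (summed level 2345 to 2841 CPM) and T and NK markers in 2 of 10 (37.1 to 83.8 CPM), and their part was not tested.

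Blockade of IL2RB gave 9 of 10 members lower than aPD1 alone and none higher, where 14.5% of all genes were lower, with Il18 again outside the count (log2 fold change -0.45, SE 0.217, adjusted p = 0.127). The median was -0.67, against 0.0036 over all genes. Il18bp was at 6.51, 9.23 and 18.9 CPM (lowest, median, highest), and even the highest tumor stayed just under the lowest aPD1 tumor. It fell to 0.316 of the aPD1 level (log2 -1.66, SE 0.293, adjusted p = 3.02e-05). It was the only member to separate, as 2.99% of all genes did downward.

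Pycard gave the smallest adjusted p of the 10. In aPD1 + aIL2RB tumors it was at 5.64, 7.55 and 12.8 CPM (lowest, median, highest), and only its highest tumor reached the 2 lowest aPD1 tumors. It fell to 0.445 of the aPD1 level (log2 -1.17, SE 0.153, adjusted p = 4.27e-07). Nlrp3 ranged from 7.84 through 12.0 to 23.05 CPM (log2 -0.997, SE 0.205, adjusted p = 0.000240), so that the sensor gene overlapped the aPD1 range in 1 tumor. The necroptosis genes split by size, with Ripk3 at -0.91 (SE 0.202, adjusted p = 0.000588) and Zbp1 at -0.90 (SE 0.209, adjusted p = 0.000941) but Mlkl at -0.23 (SE 0.0634, adjusted p = 0.00470). The protease and pore genes lay between -0.29 and -0.34, with Gsdmd at -0.29 (adjusted p = 0.00139), Casp1 at -0.30 (adjusted p = 0.0111) and Casp4 at -0.34 (adjusted p = 0.0282).

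T and NK markers were lower than with aPD1 alone in 10 of 10 in this group, with a summed level of 3.8 to 43.8 CPM and the NK gene Ncr1 at 0 in every tumor, and macrophage and monocyte markers in 9 of 10 (2157 to 3081 CPM). Their part in the lower member levels was not tested. Without aPD1 replicate 4 the count was 7, with Casp1 (adjusted p = 0.0563) and Casp4 (0.0919) outside it. Casp4 alone left the count without aPD1 replicate 1 or 6 (0.0811 and 0.0666). Of all genes, 2449 were lower with all tumors and 2015 without aPD1 replicate 4. Leaving out aPD1 replicates 1 and 6 in turn gave 2279 and 2152.

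With both blocking antibodies all 10 members were lower than with aPD1 alone, where 14.3% of all genes were lower, and the median was -0.81 against 0.011 over all genes. Pycard fell by 1.16 on the log2 scale (SE 0.154, adjusted p = 5.16e-07), with 5.37, 7.92 and 12.5 CPM as the lowest, median and highest tumor. Ripk3 (-0.98, adjusted p = 0.000284), Nlrp3 (-0.99, adjusted p = 0.000312), Zbp1 (-0.97, adjusted p = 0.000438), Gsdmd (-0.33, adjusted p = 0.000368), Casp1 (-0.36, adjusted p = 0.00207), Casp4 (-0.44, adjusted p = 0.00444) and Mlkl (-0.22, adjusted p = 0.00667) also fell. Il18 passed only here (-0.64, SE 0.218, adjusted p = 0.0232), at 0.659 to 2.31 CPM, and lost the call without aPD1 replicate 6, its highest tumor (-0.43, adjusted p = 0.167).

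Il18bp fell by 1.38 (SE 0.294, adjusted p = 0.000403), and its tumors had the widest range of any group at 5.16, 9.11 and 42.4 CPM (lowest, median, highest). The highest, replicate 1, exceeded 5 of the 6 aPD1 tumors, and the next highest was at 19.2 CPM. No member separated from aPD1 in this comparison, as 0.827% of all genes did downward. T and NK markers were lower in 10 of 10 (0.6 to 99.6 CPM) and macrophage and monocyte markers in 9 of 10 (1799 to 4011 CPM), and their part was not tested.

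Other marker lists moved in the blockade comparisons as well. Skeletal muscle genes were lower than with aPD1 alone in 0 of 4 with aGMCSF (0.8 to 167 CPM summed), in 4 of 4 with aIL2RB (2.1 to 79.7 CPM) and in 1 of 4 with both (0.6 to 180 CPM). Conventional dendritic cell markers were lower in 2, 3 and 3 of 7 and higher in 1 of 7 each time (78.7 to 101, 64.8 to 110 and 56.4 to 123 CPM), and granulocyte markers were lower in 3, 1 and 3 of 5 tested. Their part in the lower member levels was not tested.

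**Figure D2:**
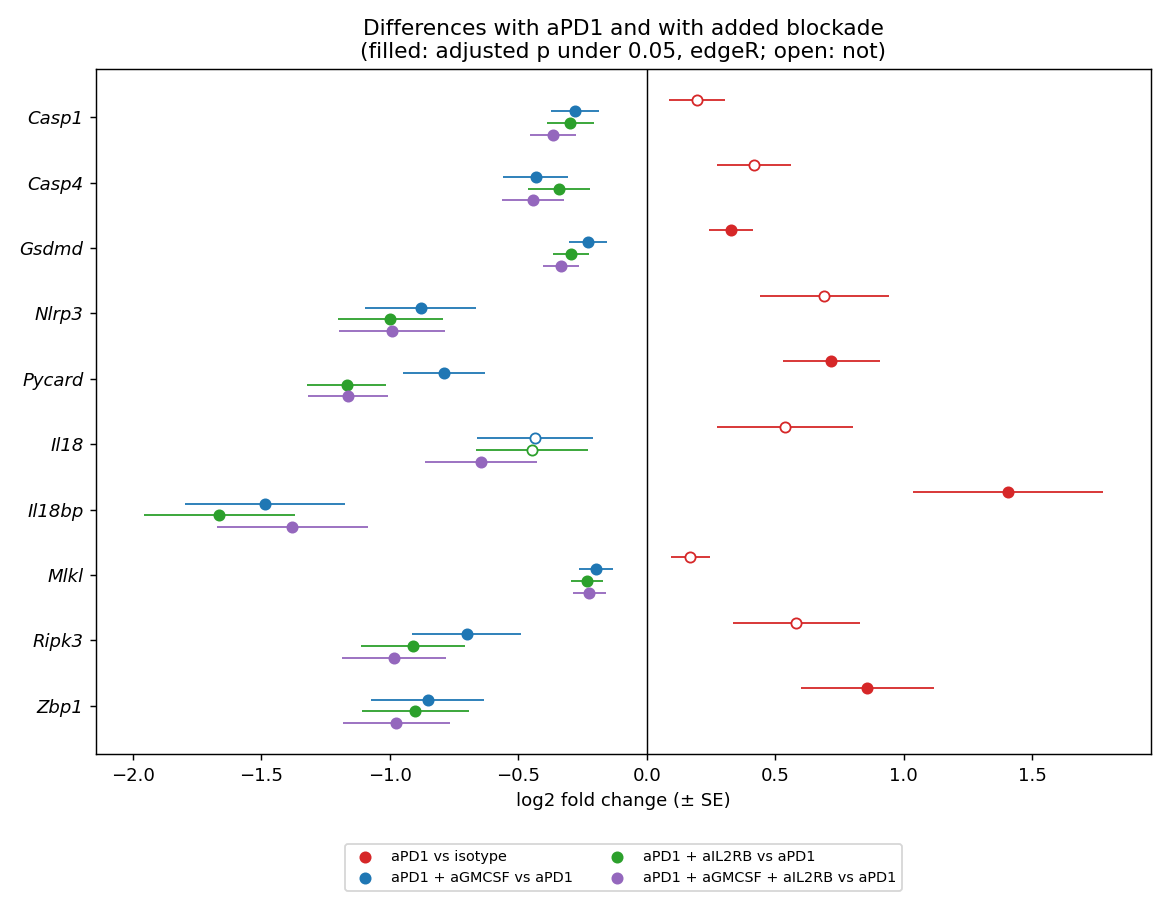
Log2 fold change (horizontal axis, bars ± SE) of each gene (vertical axis) in aPD1 against isotype and in each of the 3 blockade groups against aPD1, by edgeR; filled points have an adjusted p under 0.05. All points of aPD1 against isotype lie right of 0, 4 of them filled, and all points of the blockade groups lie left of 0, with Il18 open in 2 of the 3 groups.

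Against isotype tumors, no member passed in any blockade group. In aPD1 + aGMCSF the estimates ran from -0.19 to 0.10, with 0 members at an unadjusted p under 0.05 and 0% of all genes called in either direction. In aPD1 + aIL2RB they ran from -0.45 to 0.09, with 3.2% of all genes called, and in aPD1 + aGMCSF + aIL2RB from -0.44 to 0.03, with 10.2% called. DESeq2 also called 0 members in each. Pycard was the 1 member with an unadjusted p under 0.05 in each of the latter groups, at -0.45 (SE 0.166, adjusted p = 0.128) and -0.44 (SE 0.166, adjusted p = 0.0775). Without aPD1 + aGMCSF + aIL2RB replicate 1, Pycard passed in the last group (-0.51, adjusted p = 0.0346), an alternative added after the levels were seen.

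Between the blockade groups no member passed either. The estimates were -0.38 to 0.09 for aPD1 + aIL2RB against aPD1 + aGMCSF (1.52% of all genes called), -0.37 to 0.11 for both antibodies against aGMCSF (2.13%) and -0.20 to 0.28 for both against aIL2RB (0.00591%). Pycard was lowest where IL2RB was blocked: its estimates were -0.38 (SE 0.141, adjusted p = 0.186), -0.37 (SE 0.141, adjusted p = 0.151) and 0.01 (SE 0.135, adjusted p = 0.997) in that order. It was the member with an unadjusted p under 0.05 in the first pair and in the second, there was none in the third, and DESeq2 called 0 in all 3 pairs.

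Ordered by group mean, aPD1 was highest for all 10 genes. The lowest mean was in aPD1 + aGMCSF + aIL2RB tumors for Casp1, Casp4, Gsdmd, Il18, Ripk3 and Zbp1 and in aPD1 + aIL2RB tumors for Nlrp3, Pycard, Il18bp and Mlkl, but below the aPD1 group no neighbours in these orders differed past the threshold.

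Whether the 2 blockades added up on the log2 scale was tested as the effect of aGMCSF in tumors given aIL2RB minus its effect in tumors without. All 10 estimates were above 0, meaning that the double blockade lowered the genes less than the sum of the separate blockades, and 3 passed, where 5.29% of all genes did in that direction. The median was 0.48, against -0.0004 over all genes. These estimates add the level of the same 6 aPD1 tumors, the highest group for all 10 genes. Their shared sign is therefore not independent of the comparisons with aPD1 above. After either single blockade no member differed from isotype past the threshold, and whether the levels could fall further was not tested. Il18bp departed most (1.77, SE 0.405, adjusted p = 0.00646), followed by Nlrp3 (0.89, SE 0.282, adjusted p = 0.0423) and Pycard (0.79, SE 0.211, adjusted p = 0.0158). The others were Zbp1 at 0.78 (adjusted p = 0.0801), Ripk3 at 0.63 (0.155), Casp4 at 0.33 (0.205), Il18 at 0.24 (0.684), Mlkl at 0.21 (0.124), Casp1 at 0.21 (0.296) and Gsdmd at 0.19 (0.224). Without aPD1 replicate 4 only Il18bp passed (1.61). Without aPD1 + aGMCSF + aIL2RB replicate 1 Il18bp (1.40) and Pycard (0.72) passed and Nlrp3 did not (0.71, adjusted p = 0.0805). Nlrp3 also lost its call without aPD1 replicate 1, 5 or 6 (adjusted p = 0.0602 to 0.0792) and without aPD1 + aGMCSF + aIL2RB replicate 4, the tumor with the lowest total (0.0563).

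The 2 sets of tumors differed in how far apart aPD1 and the double blockade lay. In the first set 1 member, Mlkl, was lower with both antibodies than with aPD1 (2.58% of all genes), and in the second set 8 were (16.4%). The difference between the sets passed for Il18bp (second minus first -2.25, SE 0.473, adjusted p = 0.0029), Zbp1 (-1.28, adjusted p = 0.0226), Casp4 (-0.64, adjusted p = 0.0243), Gsdmd (-0.40, adjusted p = 0.0353), Pycard (-0.91, adjusted p = 0.0385) and Nlrp3 (-1.16, adjusted p = 0.0442), that is 6 of 10, where 6.55% of all genes passed in that direction. Ripk3 was close (-1.03, adjusted p = 0.0675). Since the sets were chosen from these same expression values, the p-values for differences between them may be too small. Only the Il18bp difference held without each of the 6 aPD1 tumors and without aPD1 + aGMCSF + aIL2RB replicate 1, left out in turn (-1.83 to -2.57, largest adjusted p = 0.0188). Without aPD1 + aGMCSF + aIL2RB replicate 1 it was -1.83 (adjusted p = 0.0051) and Casp4 alone passed beside it (0.0467), where 4.71% of all genes did. Without aPD1 replicate 2, 4 or 6 Il18bp passed alone, and without aPD1 replicate 3 it passed with Gsdmd (0.0454). In the order of these fits, 3.32%, 3.24%, 5.05% and 4.51% of all genes passed in that direction.

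For Il18bp the log2 fold change of both antibodies against aPD1 was -0.48 in the first set and -2.73 in the second. Without replicate 1 of the double blockade the first-set value was -0.90 (SE 0.257, adjusted p = 0.0275), and Mlkl, Pycard, Nlrp3, Ripk3 and Zbp1 also passed there (adjusted p = 0.0020 to 0.0497). Its means were 26.4 CPM in aPD1 (n = 3) and 18.9 ± 12.1 CPM in double-blockade tumors (SD, n = 6) in the first set, against 42.2 CPM (n = 3) and 6.41 ± 1.41 CPM (SD, n = 5) in the second. In double-blockade replicates 1 to 6 Il18bp was at 42.4, 15.95, 9.1, 16.2, 19.2 and 10.6 CPM, and in replicates 7 to 11 at 6.0, 5.4, 5.2, 8.7 and 6.8 CPM. The highest tumor of the second set (8.7) lay just under the lowest of the first (9.1). The sets were drawn from these same data, and the share of all genes that separate in this way was not counted. For Zbp1 the means of aPD1 and double blockade were 88.5 and 67.9 CPM in the first set and 130 and 41.02 CPM in the second. Against aPD1 + aIL2RB, the double blockade also differed between sets in Il18bp (-1.52, adjusted p = 0.0402), where 1.67% of all genes passed in that direction. That difference did not pass without double-blockade replicate 1 (-1.10, adjusted p = 0.130).

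The other 3 comparisons that involve aPD1 kept the direction of every member within the sets, apart from Casp1 in aPD1 against isotype in the first set (-0.039), but not their counts. For aPD1 against isotype, 0 members rose in the first set (0.00591% of all genes) and 7 in the second (9.19%): Il18bp (1.72), Zbp1 (1.36), Pycard (1.04), Nlrp3 (0.93), Ripk3 (0.84), Casp4 (0.57) and Gsdmd (0.54). The first set holds 2 isotype and 3 aPD1 tumors and the second 3 of each. Counts of calls from so few tumors do not compare the size of the changes. The difference between sets passed for no member here and for 0.0591% of all genes upward (adjusted p = 0.361 for Zbp1 and 0.272 for Gsdmd). For aPD1 + aGMCSF against aPD1, 0 fell in the first set and 8 in the second (0.0827% and 10.8% of all genes), and for aPD1 + aIL2RB, 5 and 8 did (9.33% and 13%). Across treatments, Casp4 was the only member whose level differed between sets, by -0.23 in the second (SE 0.0661, adjusted p = 0.00822), where 11.5% of all genes were lower.

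**Figure D3:**
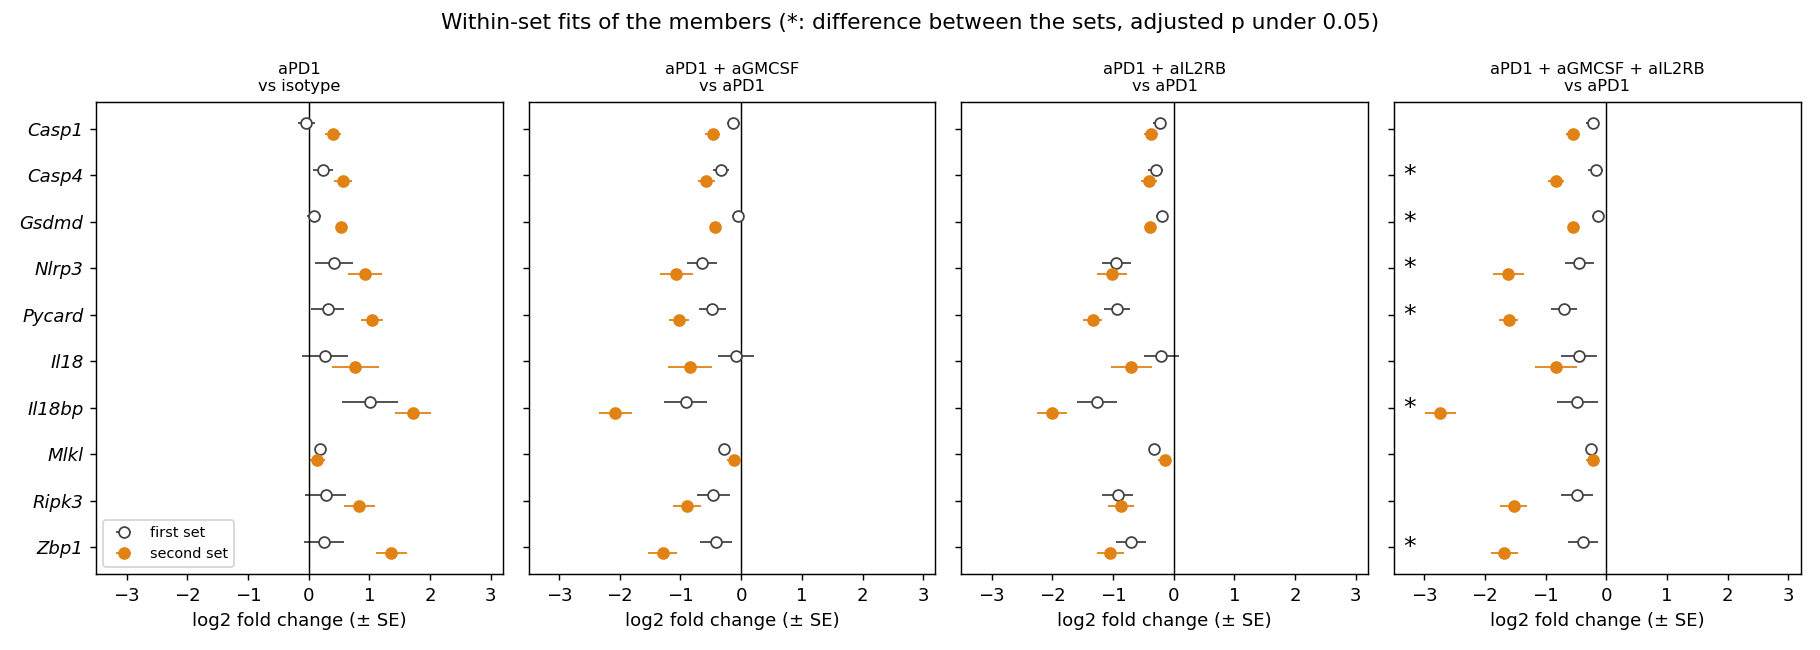
Log2 fold change (horizontal axis, bars ± SE) of each gene (vertical axis) in 4 comparisons, within the first (open) and the second set (filled) of tumors; asterisks mark differences between the sets at an adjusted p under 0.05. Il18bp with both antibodies against aPD1 is at -0.48 in the first set and -2.73 in the second.

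The balance of the decoy to its cytokine was read as the log2 ratio of Il18bp to Il18 counts within a tumor, which no scaling between tumors touches. The median ratio was 7.33 in isotype (lowest 5.69, highest 11.7), 15.5 in aPD1 (6.91 to 20.6), 6.41 in aPD1 + aGMCSF (3.94 to 10.4), 5.05 in aPD1 + aIL2RB (3.30 to 12.3) and 5.57 in aPD1 + aGMCSF + aIL2RB tumors (2.41 to 20.5). The ratio of 20.5 was that of replicate 4, the tumor with the lowest total, and rested on 123 Il18bp and 6 Il18 counts. Il18bp counts exceeded Il18 counts in every tumor, which does not compare numbers of transcripts, since the annotated exons cover 3026 bases in Il18bp and 1031 in Il18. The aPD1 range overlapped that of each other group. The mean log2 ratio was 1.03 lower in aPD1 + aGMCSF than in aPD1 tumors (difference -1.03, two-sided exact permutation test p = 0.00280, adjusted p = 0.0140 over 10 pairs). In aPD1 + aIL2RB tumors the difference from aPD1 was -1.28 (exact permutation p = 0.00226, adjusted p = 0.0140). Between aPD1 and isotype it was 0.85 (exact permutation p = 0.0455, adjusted p = 0.152), and between both antibodies and aPD1 -0.91 (exact permutation p = 0.0840, adjusted p = 0.210). The other 6 pairs had adjusted p = 0.376 to 0.906.

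**Figure D4:**
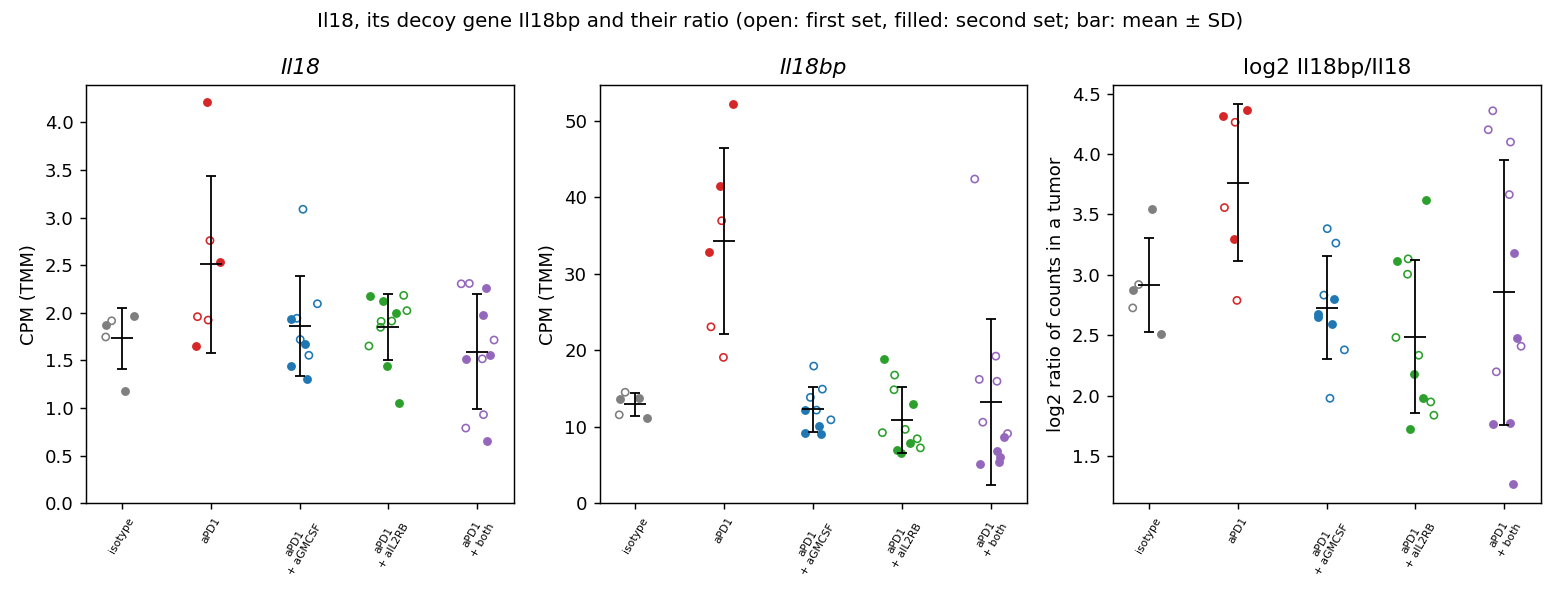
Levels of Il18 and Il18bp in CPM (left and centre) and the log2 ratio of their counts within a tumor (right) for the 5 groups; open points are the first set, filled points the second, bars the mean ± SD. The mean log2 ratio is 3.76 in aPD1 tumors and 2.49 to 2.91 in the other groups, and aPD1 + aGMCSF + aIL2RB tumors spread most (SD 1.10). The highest point of that group, replicate 4, rests on 6 Il18 counts.

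Set against the leukocyte gene Ptprc in the same tumor, the members did not move alike. From isotype to aPD1 the mean log2 ratio of Il18bp to Ptprc was 0.40 higher, whereas those of the other 9 differed by -0.08 (Zbp1) to -0.77 (Mlkl). From aPD1 to aPD1 + aIL2RB it was lower for Il18bp (-0.40) and higher for the others, by 0.12 (Pycard) to 1.04 (Mlkl). With aGMCSF Nlrp3 (-0.08) and Zbp1 (-0.06) were also on the lower side, and with both antibodies Pycard was (-0.05), beside Il18bp at -0.65 and -0.52. Set against the macrophage gene Adgre1, the shift from isotype to aPD1 was 0.62 for Il18bp, 0.14 for Zbp1, -0.04 for Nlrp3, -0.05 for Pycard and -0.55 for Mlkl. From aPD1 to aPD1 + aIL2RB it was -0.72 for Il18bp, -0.20 for Pycard, -0.07 for Nlrp3 and 0.72 for Mlkl, so that the direction for Pycard and Nlrp3 depended on the reference gene. These ratios are a description without a test.

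Of other genes of the pathway, 6 of 15 tested priming and sensor genes rose in aPD1 against isotype, and 8, 10 and 9 were lower than aPD1 with aGMCSF, aIL2RB and both (medians 0.51, -0.38, -0.49 and -0.45). Of all genes, 6.17% rose with aPD1 and 8.75%, 14.5% and 14.3% were lower in these blockade groups, shares that serve for each list that follows. Mefv, the pyrin sensor, rose by 1.29 (SE 0.342, adjusted p = 0.0148) and Nlrp1a, another inflammasome sensor, by 1.01 (SE 0.224, adjusted p = 0.00429). With aIL2RB, Nlrp1b fell by 1.28 (adjusted p = 8.56e-07) and Mefv by 1.17 (adjusted p = 0.00102), while Txnip, of thioredoxin binding, was the 1 that rose. Among 10 IL-1 family genes 2 rose with aPD1, the receptor antagonist gene Il1rn (1.40, adjusted p = 0.0281) and the receptor gene Il1r1 (0.86, adjusted p = 0.0280), and 1 fell, Sigirr (-0.36). With aIL2RB 4 fell, foremost Il18r1, the receptor gene for IL-18 (-2.62, SE 0.422, adjusted p = 8.08e-06), which was at 5.19 to 14.3 CPM in aPD1 and 0.37 to 3.04 CPM in aPD1 + aIL2RB tumors, and Il1rn (-1.31, adjusted p = 0.00215).

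Of 7 pore and repair genes, Ninj1, needed for plasma membrane rupture, was the 1 that rose with aPD1 (0.64, adjusted p = 0.0231) and that fell with aIL2RB (-0.71, adjusted p = 0.000359), and a share of 1 in 7 is no higher than that of all genes lower with aIL2RB (14.5%). None of 7 other caspases rose with aPD1. Of 21 necroptosis triggers and brakes 4 rose with aPD1 (6.17% of all genes), among them Tnf (1.07, adjusted p = 0.0241) and Cflar, a brake on caspase-8 (0.32, adjusted p = 0.0257). Tnf (-1.52, adjusted p = 1.02e-05) and Tnfaip3 (-0.46, adjusted p = 0.000851) were among 5 of the 21 that fell with aIL2RB (14.5% of all genes), where Tlr3 rose. Of 14 interferon signalling genes 8 rose with aPD1 and 8, 9 and 10 fell with aGMCSF, aIL2RB and both (6.17%, 8.75%, 14.5% and 14.3% of all genes). Irf7 (1.94, adjusted p = 0.000156) and Irf8 (0.84, adjusted p = 0.0109) rose most with aPD1, and Ifng (-2.28, adjusted p = 0.000683) and Irf7 (-1.41, adjusted p = 5.92e-06) fell most with aIL2RB.

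The genes whose patterns over the 42 tumors were most like each member were found by the mean absolute difference of standardized log2 CPM, over 12442 genes that share the libraries and treatments. Zbp1 was close to Irf9 (0.240), an interferon signalling gene. Il18bp was most like Samhd1 (0.220) and Fgl2 (0.239), Ripk3 like Ptpn6 (0.303), Nlrp3 close to Fcer1g (0.340), and Pycard like Cd52 (0.320) and Arl6ip1 (0.328). The rest had more distant neighbours: Casp4 had Inpp5k (0.417) and Csf2rb2 (0.449), Gsdmd had Gm1821 (0.438) and Rhog (0.445), Mlkl had Tgtp2 (0.494) and Gbp6 (0.495), and Casp1 had Gbp6 (0.498) and Parp9 (0.501). Il18 stood apart, with Ap1b1 and Mocs1 at 0.717. Among the members themselves the nearest pairs were Il18bp with Zbp1 (0.329), Nlrp3 with Ripk3 (0.363) and Nlrp3 with Pycard (0.429). These are descriptions without a test.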

How the data were processed

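Poly(A) RNA-seq libraries of 42 MC38 tumors were deposited as tables of expected counts per gene. The authors aligned reads with bowtie to transcriptomes of the Collaborative Cross founder strains and estimated the expected counts with gbrs; the submitters' processing notes name Bowtie 1.2.3 and GRCm38. Values were not normalized, 15.2% were not whole, and reads of similar loci could be split between them.

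Counts were rounded. Genes were kept by filterByExpr (minimum count 10, minimum total 15), scaled by TMM and tested with the quasi-likelihood test of edgeR 4.0.16 in R 4.3.3, with the 42 tumors and 5 groups in 1 model without covariates. Adjustment was by Benjamini-Hochberg over 16932 genes per comparison, with a threshold of 0.05. The procedure was tested on simulated data. Levels are CPM after TMM scaling. Log2 CPM used a prior count of 2. The Il18bp/Il18 ratio was compared by exact permutation over tumors, or 100000 resamples for groups of 11 against 11, in scipy 1.17.1. No 2 tumors were as close as repeat draws of 1 library (the smallest chi-square divided by its degrees of freedom was 5.64 within groups). The labels number biological replicates without naming a batch. Counting error limits Il18 most.

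The members and lists were chosen with earlier results of these data known, among them the 2 sets. Named list genes were the 2 with the largest change among those called in aPD1 against isotype and in aPD1 + aIL2RB against aPD1. For likeness the 2 nearest genes at a mean log2 CPM of at least 1 were named. A few genes that these rules name are not reported here. Alternatives were DESeq2 1.42.0, other scalings and filters, fits of only the groups compared, the set as a term, each set alone, a replicate block, and tumors left out. Promoter windows are from RefSeq.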

Additional observations from a re-analysis of the deposited data

Results flagged for a closer look

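Among 33 series of a gene or ratio within a group of 5 to 10 tumors, of which about 5% stand out by chance, 2 had an extreme tumor. Il18 was at 3.09 CPM in aPD1 + aGMCSF replicate 3, where the next tumor was at 2.10, and at 1.18 CPM in isotype replicate 4, where the next was at 1.75. The effect of aGMCSF differed between tumors with and without aIL2RB for Il18bp (1.77), Nlrp3 (0.89) and Pycard (0.79), where 5.29% of all genes passed in that direction. These estimates share the same aPD1 tumors, and without aPD1 replicate 4 only Il18bp passed. The difference between the double blockade and aPD1 alone was lower in the second set of tumors for Il18bp (-2.25), Zbp1 (-1.28), Nlrp3 (-1.16), Pycard (-0.91), Casp4 (-0.64) and Gsdmd (-0.40), of which only that of Il18bp held without each aPD1 tumor and without aPD1 + aGMCSF + aIL2RB replicate 1, left out in turn. That between the double blockade and aPD1 + aIL2RB was also lower there for Il18bp (-1.52).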

How the results depend on the processing

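The comparison of aPD1 with isotype was the least settled. In it 4 members were called with all tumors, 0 in the first set, 7 in the second and 6 by DESeq2. With a tumor left out 0 to 6 were called. Of all genes, 1045 rose with all tumors, 1 in the first set, 1556 in the second and 1288 by DESeq2. With a tumor left out 511 to 1382 did. For aPD1 + aGMCSF against aPD1 (9 called) the first set gave 0, library size alone 6, the replicate block 6 and leave-outs 4 to 9. For aPD1 + aIL2RB (9) the first set gave 5, library size alone 6 and leave-outs 7 to 9. For both antibodies against aPD1 (10) the first set gave 1 and leave-outs 9 to 10. Of all genes, 1482, 2449 and 2419 were lower in these groups with all tumors, in that order. The first set gave 14, 1580 and 437, and leave-outs 810 to 1803, 2015 to 2609 and 1979 to 2635. Library size alone gave 1120 with aGMCSF and 1981 with aIL2RB, and the replicate block gave 1239 with aGMCSF. Against isotype, both antibodies called 2 members in the second set (Pycard -0.56, Il18bp -1.01) and 1 without aPD1 + aGMCSF + aIL2RB replicate 1 (chosen after the levels were seen), and against aPD1 + aGMCSF 1 in the second set (Pycard -0.58), where the full data called 0. In the second set 6.44% of all genes were lower against isotype and 4.85% against aPD1 + aGMCSF. The interaction called 1 to 3 members with a tumor left out and 2 without aPD1 + aGMCSF + aIL2RB replicate 1. The difference between the sets called 6 members for both antibodies against aPD1, 1 to 7 with an aPD1 tumor left out and 2 without aPD1 + aGMCSF + aIL2RB replicate 1, and 1 member for both against aIL2RB, with 1 to 2 and 0 under those changes, which were chosen after the data were seen. For both antibodies against aPD1, 6.55% of all genes passed downward with all tumors. The share was 3.24% to 8.45% with an aPD1 tumor left out and 4.71% without that double-blockade replicate. The cause of these changes was not tested, and the sets hold fewer tumors. The only reversed gene estimates were Casp1 in aPD1 against isotype (-0.039, adjusted p = 0.947) and Il18 in the interaction (-0.16, adjusted p = 0.891), both in the first set.

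The log2 ratio of Il18bp to Il18 lost its call against aPD1 within either set (-0.77 and -1.31 with aGMCSF, -1.08 and -1.47 with aIL2RB) and with the replicate block (-1.02 and -1.31), and each set has only 3 aPD1 tumors, which limits the smallest p an exact test can give. Uncalled ratio differences turned in sign for both antibodies against isotype (0.66 in the first set, 0.83 with the block, and -0.16 to 0.10 with a tumor left out) and, in the second set, against aPD1 + aGMCSF (-0.58) and aPD1 + aIL2RB (-0.43).

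Replicate numbers were not taken to pair the tumors: deviations of 67 same-numbered pairs correlated at -0.40 to 0.47, with 28 over 0.1. Their median was 0.056, against -0.015 for pairs with different numbers, so a weak likeness by number is not excluded. With the replicate block 1159 of all genes were higher in aPD1 against isotype, where 1045 were without it. In the 3 blockade groups against aPD1, 1239, 2574 and 2856 were lower with the block. Without it 1482, 2449 and 2419 were. Of the members, 5, 6, 7 and 10 were called with the block in these comparisons, in that order, and 2 in the interaction. Scaling by library size alone gave 3, 6, 6 and 9, with 2 in the interaction, reversed no member, moved the median of all genes by at most 0.084, and changed the split of all genes called higher and lower from 1045 and 430 to 769 and 1174 in aPD1 against isotype, from 807 and 1482 to 1402 and 1120 with aGMCSF, from 2198 and 2449 to 3125 and 1981 with aIL2RB and from 2215 and 2419 to 3279 and 1879 with both. At 6 to 90 counts per tumor, depth limited Il18 most.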
